A study of Mus musculus with 23 samples.

Results

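The genes described here are 35 interferon response genes, picked by gene symbol from 2 tables of captured methylated DNA in mouse heart and spleen. Each table held 41388 windows of 3 kb at transcription start sites, and each of the 35 symbols occurred exactly once. By role they comprised the receptor chains Ifnar1 and Ifnar2, the transcription factors Stat2, Irf1, Irf2, Irf3, Irf5, Irf7 and Irf9, the RNA sensors Ifih1, Ddx58 and Dhx58, 21 antiviral effectors, and the regulators Usp18 and Trim25. All libraries came from male C57Bl/6 mice kept 1 to a cage. The heart libraries were made from the left ventricle. The control group ate a diet without resistant starches (4 heart and 4 spleen libraries). The high fibre group ate a diet rich in resistant starches (4 and 4). The acetate group drank 100 mM magnesium acetate (3 and 4); the labels do not state which food it ate. Feeding in each group began 3 weeks ahead of a minipump operation and ran until the study ended; the labels give neither the pump's content nor the age of the mice. They also do not say that every library of a group came from its own mouse, so p-values here measure the spread between libraries, which may be technical. The question the series title poses is whether either supplement alters DNA methylation in these organs.

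Type I interferons bind the receptor formed by Ifnar1 and Ifnar2, whose kinases phosphorylate Stat2. It joins Irf9 in a complex that binds the interferon-stimulated response element (ISRE) in promoters and switches on antiviral genes such as Isg15, the Ifit and Oas families and the Mx GTPases. CpG methylation of a promoter is commonly linked to silencing. MethylMiner captures DNA fragments through a methyl-CpG binding protein, so a window's reads reflect methylated CpGs, together with CpG density, capture efficiency and DNA copy number. Tissue DNA is a mixture, so a change in methylation within cells and a change in the mix of cell types cannot be told apart in these counts.

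Promoter sequences from RefSeq (GRCm38.p6, 250 bases before to 50 after a start) were found for 28 of the 35 genes, 33 promoters in all. Mx1, Mx2, Usp18, Parp14, Oas1b, Oas2 and Dhx58 were not matched. The ISRE core searched was GAAA, any 2 bases, GAAA, on both strands (TTTC, any 2 bases, TTTC when read on the other strand). It was present in 12 of the 33 promoters (36.4%), in 19 of 69 promoters (27.5%) of other interferon pathway genes and in 3.44% of all 32851 promoters. The gamma-activated core TTCNNNGAA, which reads the same on both strands and does not contain the ISRE core, was present in 10 of 33 (30.3%), against 8.30% of all promoters. The 250 bases before the start are shown for Isg15 and Ifit1, whose windows held almost no reads, for Ifit3, Oas3, Oasl2 and Irf7, and for Parp12. Ifit3, Oas3 and Parp12 were picked after their values were seen. In the first 6 the capitals mark ISRE cores.
Isg15, chr4:156200819-156201068, minus strand: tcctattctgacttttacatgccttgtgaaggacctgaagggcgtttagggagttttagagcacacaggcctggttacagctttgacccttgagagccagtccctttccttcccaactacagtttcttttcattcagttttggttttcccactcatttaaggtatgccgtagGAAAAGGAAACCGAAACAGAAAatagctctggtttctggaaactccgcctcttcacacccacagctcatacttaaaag
Ifit1, chr19:34640639-34640888, plus strand: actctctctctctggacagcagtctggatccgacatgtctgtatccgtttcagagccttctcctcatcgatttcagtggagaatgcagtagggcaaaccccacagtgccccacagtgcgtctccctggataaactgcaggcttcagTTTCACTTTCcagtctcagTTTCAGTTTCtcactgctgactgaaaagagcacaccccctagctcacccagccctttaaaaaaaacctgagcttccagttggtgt
Ifit3, chr19:34583279-34583528, plus strand: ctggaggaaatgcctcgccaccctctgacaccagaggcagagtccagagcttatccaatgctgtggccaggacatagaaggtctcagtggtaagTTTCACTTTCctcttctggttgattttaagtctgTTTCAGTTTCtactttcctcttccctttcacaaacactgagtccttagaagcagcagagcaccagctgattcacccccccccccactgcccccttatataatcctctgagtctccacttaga
Oas3, chr5:120777660-120777909, minus strand: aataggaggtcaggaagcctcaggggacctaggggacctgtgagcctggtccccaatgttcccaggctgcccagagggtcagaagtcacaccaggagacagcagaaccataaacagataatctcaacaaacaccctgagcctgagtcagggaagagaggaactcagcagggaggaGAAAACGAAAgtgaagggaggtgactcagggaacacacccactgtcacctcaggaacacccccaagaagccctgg
Oasl2, chr5:114896684-114896933, plus strand: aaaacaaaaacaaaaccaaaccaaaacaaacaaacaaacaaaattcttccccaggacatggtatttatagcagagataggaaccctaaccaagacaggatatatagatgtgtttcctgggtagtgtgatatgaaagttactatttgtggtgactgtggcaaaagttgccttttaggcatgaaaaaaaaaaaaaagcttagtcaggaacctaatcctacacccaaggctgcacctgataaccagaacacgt
Irf7, chr7:141266425-141266674, minus strand: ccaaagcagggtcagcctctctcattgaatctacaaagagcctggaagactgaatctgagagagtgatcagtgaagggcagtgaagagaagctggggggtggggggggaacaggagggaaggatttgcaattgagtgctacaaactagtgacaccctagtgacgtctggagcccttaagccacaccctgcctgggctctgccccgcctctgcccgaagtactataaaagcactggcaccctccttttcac

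In Isg15 the ISRE cores began 78, 72 and 66 bases before the start and ran into one another. In Ifit1 they began at 104 and 85 bases, in Ifit3 at 156 and 122, and in Oas3 at 75. The Oasl2 and Irf7 stretches held no match, which says only that these letters are not in this window. CpG sites were sparse in these 6 stretches: Isg15 and Ifit1 had 4, Irf7 had 3, and Ifit3, Oas3 and Oasl2 had 1. Parp12, an ADP-ribosyltransferase, is shown as the CpG-dense contrast, with 41 CpG sites in capitals.
Parp12, chr6:39118350-39118599, minus strand: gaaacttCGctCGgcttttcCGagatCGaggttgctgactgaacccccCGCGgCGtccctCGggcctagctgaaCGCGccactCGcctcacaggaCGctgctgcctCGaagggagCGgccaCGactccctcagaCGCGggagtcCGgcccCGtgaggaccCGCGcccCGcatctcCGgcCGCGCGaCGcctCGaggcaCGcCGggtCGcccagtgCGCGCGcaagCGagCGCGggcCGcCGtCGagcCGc

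Over the whole 300-base promoters the genes held a median of 9 CpG sites (1 to 46), and all promoters a median of 7. Across the 28 genes with a promoter, the number of CpG sites and the captured reads of the window had a Spearman rho of 0.04 in heart and 0.01 in spleen. Over all 17609 windows with a promoter the values were 0.17 and 0.18. These are descriptions across genes, which are not independent replicates, and a window is 10 times longer than the sequence counted.

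Sequencing depth differed between libraries. Totals lay between 4.12 and 8.60 M (mega) counts in the 11 heart libraries and between 4.36 and 9.87 M in the 12 spleen libraries, with a median window of 26 to 70 reads in heart and 13 to 29 in spleen. In heart a single satellite-like window, Gm10800, moved with diet: it held 42.3% ± 5.80 (SD, n = 4) of counts in control libraries, 19.1% ± 1.70 (n = 4) with high fibre and 33.8% ± 10.5 (n = 3) with acetate. Outside the 5 largest windows, the 35 genes took 0.122% ± 0.00227 of heart counts in the control group, 0.111% ± 0.00326 in the high fibre group and 0.119% ± 0.00834 in the acetate group. In spleen they took 0.125% ± 0.00150, 0.123% ± 0.00283 and 0.126% ± 0.00349 (n = 4 each). As a check of tissue, marker genes were compared between heart and spleen on control diet, where 40% of all windows were higher in heart and 32.7% lower. Cardiomyocyte markers were lower in heart for 9 of 12 genes and higher for 3, and B cell markers were higher for 6 of 7. T and NK cell markers were higher for 4 and lower for 1 of 8, myeloid markers 3 and 2 of 6, erythroid markers 1 and 3 of 5, endothelial markers 1 and 4 of 5, and fibroblast markers 3 and 1 of 5.

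Levels are given as CPM, read counts per M counts once TMM scaling, which sets the bulk of windows near equal, had been applied. For diet comparisons scaling was done within a tissue. A gene was called when edgeR's quasi-likelihood test, fitted on every window with enough reads, gave a Benjamini-Hochberg adjusted p under 0.05. Of the 35 genes, 31 had enough reads to be tested in heart, where 33562 windows were tested, and 25 in spleen, where 24871 were.

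The windows of 4 genes were nearly empty in both tissues. Isg15, the ubiquitin-like protein of the antiviral response, had 0 reads in all 11 heart and all 12 spleen libraries. A count of 0 allows up to 3 reads per library, or 0.428 to 0.894 CPM in heart and 0.295 to 0.612 in spleen, covering counting error only. Ifit1, which binds foreign RNA, had 0, 1, 0 and 0 reads in the control heart libraries, 1, 0, 3 and 1 on high fibre and 0, 0 and 2 on acetate, and 0 in every spleen library. Irf2, an antagonist of Irf1, had 8 heart reads and 1 spleen read. Oas1b, an Oas family member annotated as a transcribed pseudogene in this reference, had 3 and 2. In spleen 6 further genes were below the count minimum: Stat2, Ifit3, Mx1, Eif2ak2, Ifi44 and Ifi35.

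Windows close to another gene's start were empty more often across the genome. Among 2709 RefSeq-matched windows whose nearest other start lay within 500 bases, 20.2% had at most 10 heart reads in total. The share was 13.1% from there to 1500 bases, 13.5% on to 3000 bases, 6.02% on to 6000 bases and 3.20% of 12599 windows farther off. Ifit1 starts 146 bases from Ifit1bl2, Irf2 230 bases from Gm16675 and Isg15 2466 bases from AW011738. Parp12 (124 bases from 4930599N23Rik), Trim25 (33 bases from Gm11496) and Irf3 (69 bases from Bcl2l12) were as close and held reads. How reads in overlapping windows were counted is not given in the sources used here, so an empty window cannot be read as unmethylated DNA.

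In heart, the high fibre diet went with less captured DNA at 9 interferon response genes and more at 1, of 31 tested against control. The 9 comprised 4 members of the 2'-5'-oligoadenylate synthetase family (Oas1a, Oas3, Oasl1 and Oasl2), the transcription factors Irf1, Irf3 and Irf9, the sensor Dhx58 and the tether Bst2. They fell 1.31-fold to 1.55-fold. Mx2, a GTPase annotated as a transcribed pseudogene in this reference, rose 1.25-fold. Of all tested windows 26.2% were called, 12.6% higher and 13.6% lower. The 10 genes called of 31 lay near that overall share, and 9 of the 10 were lower.

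Irf9, the DNA-binding partner of Stat2, had 47.0, 44.8, 51.8 and 42.2 CPM in the 4 control heart libraries. The 4 high fibre libraries had 34.2, 30.4, 32.5 and 22.5 CPM. Each high fibre library was below each control library, and the group means were 46.5 ± 4.06 and 29.9 ± 5.18 (SD, n = 4). The log2 fold change was -0.63 (SE 0.15, edgeR adjusted p = 0.00824). Oasl2, an Oas-like protein, had 55.3, 57.3, 55.1 and 52.3 CPM on control. On high fibre it had 37.1, 35.5, 43.1 and 37.3 CPM. The groups did not overlap, and the log2 fold change was -0.52 (SE 0.12, edgeR adjusted p = 0.00810). Both genes were picked by smallest p, and the share of all windows whose groups do not overlap is not given here.

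Among the other transcription factors, Irf1, an activator of interferon genes, went from 19.5 ± 2.71 to 13.0 ± 1.51 CPM (log2 -0.58, edgeR adjusted p = 0.0162). Irf3, which responds to sensed nucleic acid, went from 10.8 ± 0.281 to 7.05 ± 1.48 CPM (log2 -0.59, adjusted p = 0.0257). Control and high fibre libraries did not overlap for either gene. What share of all windows separates in this way is not given here, so this does not set the 2 genes apart. Irf7, the factor that amplifies interferon production, had 14.9, 11.9, 10.7 and 11.5 CPM on control and 10.9, 11.2, 12.7 and 9.89 on high fibre. Its groups overlapped (log2 -0.14, SE 0.20, adjusted p = 0.611). Stat2 had 1.52, 3.47, 2.44 and 2.10 CPM on control and 1.64, 1.27, 2.71 and 2.87 on high fibre, from 7 to 21 reads a library, also overlapping (log2 -0.12, SE 0.41). Irf5 had a log2 difference of -0.10 (SE 0.12). In all, 3 of the 6 tested factors were lower.

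Neither receptor chain was called. Ifnar1 had 15.7, 12.2, 12.7 and 14.7 CPM on control and 15.3, 16.8, 12.6 and 13.5 on high fibre, which overlapped (log2 0.06, SE 0.14). Ifnar2 had a log2 difference of -0.29 (SE 0.13, edgeR adjusted p = 0.0860). Of the 3 sensors of viral RNA, Dhx58, a helicase that modulates the other two, fell from 57.4 ± 6.49 to 41.4 ± 6.29 CPM (log2 -0.47, adjusted p = 0.0144). Its lowest control library (47.8) and highest high fibre library (47.9) were level. Ddx58, which encodes RIG-I, and Ifih1, which encodes MDA5, were not called, at log2 -0.25 (SE 0.12) and 0.16 (SE 0.12).

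Among the 18 tested effectors 5 were lower and 1 was higher. The Oas enzymes make the 2-5A messenger that activates RNase L. Oas3 went from 55.1 ± 6.65 to 37.6 ± 3.83 CPM, with all high fibre libraries (34.5 to 43.1) below all control libraries (47.4 to 63.5), a log2 fold change of -0.55 (edgeR adjusted p = 0.0113). Oasl1 went from 56.4 ± 6.96 to 38.9 ± 4.08 CPM (log2 -0.53, adjusted p = 0.0122), and Oas1a from 12.2 ± 0.293 to 9.24 ± 0.527 (log2 -0.39, adjusted p = 0.0445). For both, no high fibre library reached the lowest control library. Oas2, next to Oas3 on chromosome 5, had a log2 difference of -0.29 (SE 0.12, adjusted p = 0.0821). Bst2, which tethers virions to the cell surface, went from 12.7 ± 1.16 to 8.68 ± 1.35 CPM without overlap (log2 -0.55, adjusted p = 0.0143). For these effectors too, the share of all windows without overlap is not given, so the separations describe the genes alone. The other 10 tested effectors besides the Mx genes were not called, from log2 -0.63 (SE 0.44) for the RNA-activated kinase Eif2ak2 to 0.61 (SE 0.32) for Ifi44. Among them were the radical SAM enzyme Rsad2, known as viperin (0.40, SE 0.18, adjusted p = 0.0893), the exonuclease Isg20 (-0.18, SE 0.14), Ifit2 (-0.12, SE 0.17) and Ifit3 (0.29, SE 0.22). Xaf1 (-0.26, SE 0.16), Ifi35 (0.12, SE 0.24), Parp12 (-0.03, SE 0.12) and Parp14 (0.05, SE 0.19) completed the group.

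Mx2 was the exception in direction. It had 22.4, 29.7, 26.2 and 27.7 CPM on control and 30.9, 35.3, 33.1 and 33.4 on high fibre (log2 0.32, SE 0.12, edgeR adjusted p = 0.0425). The highest control library lay under the lowest high fibre library. Its neighbour on chromosome 16, Mx1, had 1.98, 3.47, 2.89 and 3.63 CPM on control and 5.46, 4.89, 5.14 and 7.17 on high fibre, from 13 to 50 reads a library. Its groups also did not overlap, but at log2 0.86 (SE 0.35) it just missed the threshold (adjusted p = 0.0509). Neither separation is set against the share of all windows without overlap, which is not given here. The ISG15 protease Usp18 (log2 -0.30, SE 0.14) and the ubiquitin ligase Trim25 (log2 -0.36, SE 0.35) were not called. The Mx2 call was lost in 7 of the 11 fits that each left out 1 heart library (any high fibre library, or control replicate 1, 3 or 4). The plot of the 10 called genes by library shows each value in both tissues.

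**Figure D1:**
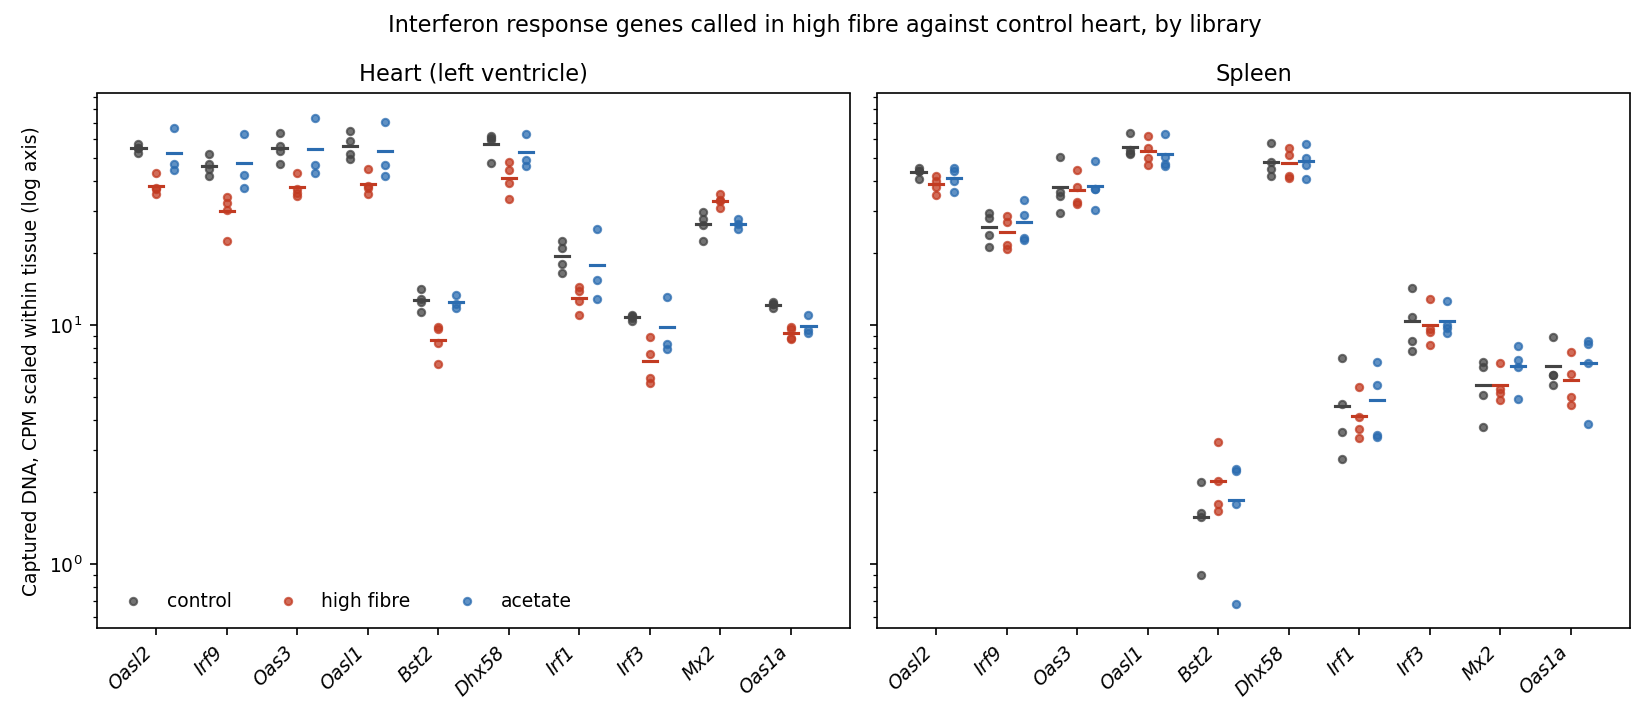
Captured DNA of the 10 interferon response genes called in high fibre against control heart, in CPM on a log axis, with heart libraries on the left and spleen libraries on the right. Points are libraries and bars are group means, coloured by diet. In heart the high fibre points of Irf9 (22.5 to 34.2) lie under the control points (42.2 to 51.8); in spleen the 3 diets overlap.

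These calls changed with the covariates, the scaling and the libraries used. With a surrogate variable (a covariate estimated from the data, here 1) no gene of the 31 was called (7 had an unadjusted p under 0.05; edgeR), and 109 windows remained of 8786. With plain library totals in place of TMM the median of all tested windows moved from 0.02 to 0.69, 17 genes were called higher and none lower, and the 9 lower genes turned to log2 values between 0.07 and 0.29. They still lay below the median of all windows. A change of scaling moves all windows by nearly the same amount, so this was set in advance and is no support for the calls. With totals taken outside the 5 largest windows, Gm10800 among them, 7 genes were lower and 2 higher (an alternative chosen after seeing the data). Leaving out control replicate 1 left 3 of the 31 genes called, leaving out high fibre replicate 4 left 4, and leaving out acetate replicate 1, a library of neither group, gave 17. Apart from the surrogate variable fit, the share of all windows called is not given for these fits. Their counts thus do not show whether the genes differed from other windows. Irf9 and Oasl2 kept their calls in all 11 fits that each left out 1 heart library. The Oas1a call was lost without any 1 of the 8 control and high fibre libraries, and the Irf3 call was lost in 5 fits (control replicate 1, 2 or 3, or high fibre replicate 1 or 3). Dhx58, Irf1 and Oasl1 lost theirs without control replicate 1 or high fibre replicate 4, Oas3 without control replicate 1 and Bst2 without high fibre replicate 4.

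The high fibre difference followed window abundance across the genome, and the called genes were read against that trend. In the lowest decile of windows by mean captured DNA 19.1% were higher and 0.596% lower, with a median log2 difference of 0.54. In the highest decile 42.2% were lower and 3.96% higher, with a median of -0.27. The 7 interferon response genes in the highest decile had a median of -0.52, and 5 of them were lower: Irf9, Dhx58, Oas3, Oasl1 and Oasl2. Ddx58 and Irf5 were the other two and were not called. In deciles 6 to 9, where 20.8% of windows were lower, 10 genes held 1 lower (Irf1) and 1 higher (Mx2). In deciles 2 to 5, where 2.44% of windows were lower and the median was 0.28, 12 genes held 3 lower: Irf3, Bst2 and Oas1a. The median over all 31 genes was -0.25, against 0.02 over all windows.

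**Figure D2:**
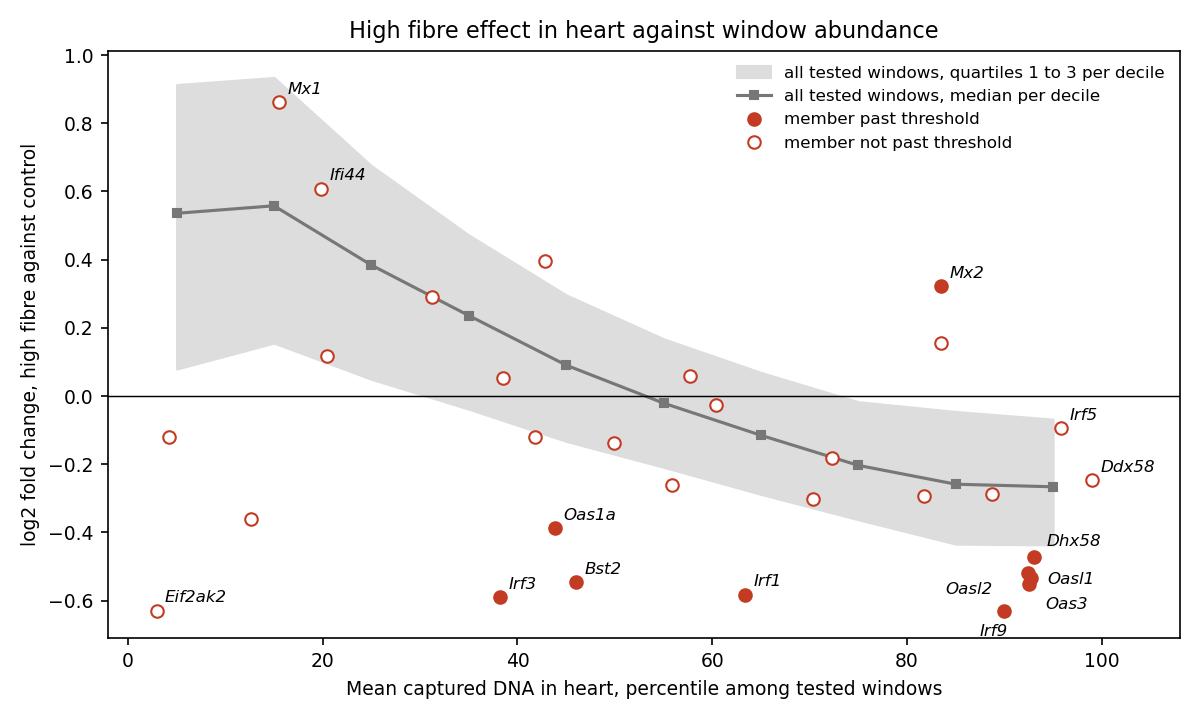
Log2 fold change in heart, high fibre against control, over the percentile of a window's mean captured DNA among tested windows. The grey line and band give the median and quartiles of all tested windows per decile; circles are the 31 tested interferon response genes, filled where called. The grey median falls from 0.54 to -0.27 from the lowest to the highest decile, and the 9 genes called lower lie under the band at their abundance. Their place there follows in part from being picked as called lower in the same data.

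After cyclic loess, which removes such a trend between libraries, limma called 8 of the 31 genes, 1 higher and 7 lower. The share of all windows called after loess is not given here, so this count cannot be set against it. Of the genes called with edgeR 7 kept their calls, and the remaining lower gene had no call with edgeR. Bst2 kept a log2 value of -0.60, Irf3 -0.77, Oas1a -0.47, Irf9 -0.41, Oas3 -0.31 and Oasl2 -0.29, and Mx2 had 0.54. Dhx58 (-0.23), Oasl1 (-0.29) and Irf1 (-0.47) lost their calls.

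A second list of 72 other interferon pathway genes, such as Toll-like receptors, kinases and guanylate-binding proteins, had 68 tested members in heart. Of these, 15 were lower and 3 higher on high fibre, with a median of -0.09. The 18 calls are 26.5% of the list, at the share of all windows called (26.2%). Named here are the 4 with the smallest p. Tlr9, the endosomal receptor for CpG DNA, went from 38.9 ± 6.36 to 23.7 ± 2.68 CPM (log2 -0.71, edgeR adjusted p = 0.00714). The ubiquitin ligase Trim56 fell by 0.66 on the log2 scale (adjusted p = 0.00872), the adaptor Traf3 by 0.48 (adjusted p = 0.00963) and the cytidine deaminase Apobec3 by 0.44 (adjusted p = 0.0113). Marker genes of other cell types moved in the same comparison. Of 8 myeloid markers, Adgre1 was not analysed here, Cd68 had 0 reads, and 5 of the 6 tested were lower (median -0.49). Their summed level was 180 to 206 CPM on control and 132 to 146 on high fibre. For T and NK cell markers 3 of 8 were lower, with sums of 193 to 220 and 147 to 175 CPM and none at 0. Cardiomyocyte markers were lower in 3 and higher in 1 of 12, with sums of 385 to 454 and 374 to 413 CPM. Fibroblast markers were higher in 2 of 5, with sums of 109.6 to 128.3 and 128.4 to 136.1 CPM. B cell markers were lower in 2 and higher in 1 of 7, with sums of 143 to 178 and 139 to 150 CPM. Erythroid markers were lower in 2 of 5 (80.3 to 95.4 and 70.3 to 82.4 CPM). Endothelial markers were lower in 1 of 5 (98.8 to 115 and 87.8 to 102 CPM). The part of cell composition in the result was not tested.

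Acetate was not accompanied by a called change at these genes in heart. None of the 31 passed, none had an unadjusted p under 0.05 (edgeR), and 0% of all windows were called; DESeq2 also called 0. The median was 0.00. The same 4 control libraries served here as for high fibre. The smallest p values among higher genes were those of Ifih1 (0.16, SE 0.13), Ifit2 (0.20, SE 0.18) and Mx1 (0.39, SE 0.40), and among lower genes those of Oas1a (-0.27, SE 0.16), Ifnar2 (-0.19, SE 0.14) and Oas2 (-0.18, SE 0.14). Acetate libraries spread widely. Irf9 had 63.2, 42.5 and 37.6 CPM, Oasl2 66.5, 47.0 and 44.5, and Mx2 25.3, 26.4 and 27.7. For Irf9 and Oasl2 replicate 1 was above all control libraries and replicate 3 below all of them. For Oasl2 replicate 2 also lay below all control libraries (52.3 to 57.3). Replicate 1 was shallow, with a median window of 26 reads against 51 in replicate 2 and 58 in replicate 3. Irf7 had 21.5, 12.5 and 8.50 CPM, Stat2 1.19, 2.71 and 1.08, and Ifnar1 15.5, 14.6 and 15.9. The 95% interval of the difference ran from -0.34 to 0.18 for Oasl2 and from -0.30 to 0.33 for Irf9, which leaves room for moderate changes.

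Set directly against acetate, high fibre heart had lower captured DNA at 1 of 31 genes, Irf9 (log2 -0.65, SE 0.16, edgeR adjusted p = 0.0497), where 1.38% of all windows were called. With Irf9, 9 of the 31 (29%) had an unadjusted p under 0.05, near the 27.1% of all windows, and the median was -0.18. Oas3 (-0.51, adjusted p = 0.0624), Oasl2 (-0.44, adjusted p = 0.0627) and Bst2 (-0.50, adjusted p = 0.0730) missed the threshold. The Irf9 call was lost in 9 of the 11 fits that each left out 1 heart library. From the second list Tlr9 alone passed (-0.69, adjusted p = 0.0497).

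**Figure D3:**
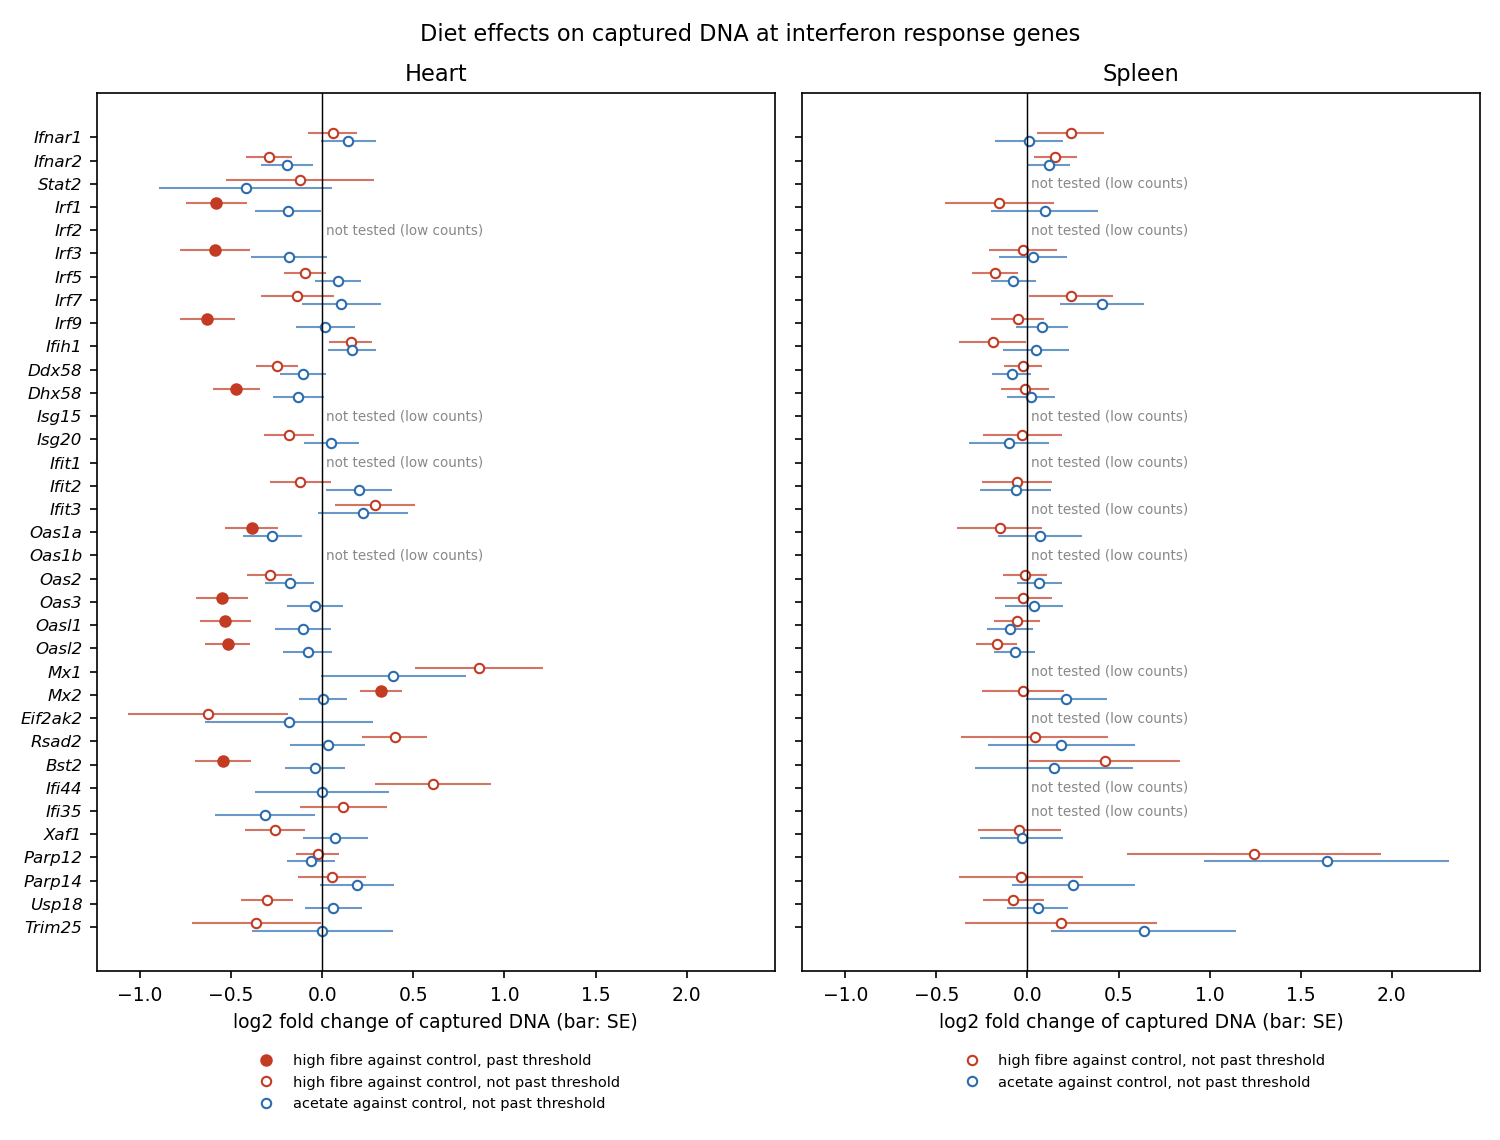
Log2 fold changes of captured DNA for the 35 genes, high fibre and acetate each against the same control libraries, in heart (left) and spleen (right); bars are 1 SE, filled circles passed the threshold, and untested genes are marked. Filled circles occur for high fibre in heart, where 9 lie left of 0 and Mx2 lies right of it.

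In spleen no gene of the 25 tested was called in any diet comparison, and 0% of all windows were. For high fibre against control 1 of the 25 had an unadjusted p under 0.05 (edgeR; DESeq2 also called 0) and the median was -0.02. For acetate against control the count was 1 and the median 0.06, and for high fibre against acetate 0 and -0.10. The genes that were lower in high fibre heart were not called here. Irf9 had 29.3, 23.9, 21.3 and 27.9 CPM on control and 28.7, 27.1, 21.6 and 20.7 on high fibre, which overlapped (log2 -0.05, 95% interval -0.34 to 0.23). Oasl2 had a log2 difference of -0.17 (SE 0.11, from -0.39 to 0.05) and Oas3 one of -0.02 (SE 0.16, from -0.33 to 0.29).

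Irf7 had 6.02, 3.74, 3.75 and 6.54 CPM in control spleen, 6.55, 6.69, 6.06 and 4.15 on high fibre, and 6.29, 5.91, 6.19 and 7.79 on acetate. Its groups overlapped in both comparisons, and against control it stood at log2 0.24 (SE 0.23) on high fibre and 0.41 (SE 0.23) on acetate. Ifnar1 had 5.56, 7.97, 7.62 and 6.68 CPM on control, 6.91, 9.40, 8.03 and 9.07 on high fibre and 8.20, 6.73, 7.73 and 5.79 on acetate, again overlapping. Stat2 held 1 to 11 reads per spleen library. Besides these, the genes with the smallest p on high fibre were Ifnar2 (0.15, SE 0.12) upward and Irf5 (-0.18, SE 0.12) and Ifih1 (-0.19, SE 0.18) downward. On acetate they were Trim25 (0.64, SE 0.51), Ddx58 (-0.09, SE 0.10), Oasl1 (-0.10, SE 0.13) and Irf5 (-0.08, SE 0.12). Between high fibre and acetate they were Ifnar1 (0.23, SE 0.19), Bst2 (0.28, SE 0.42), Ddx58 (0.06, SE 0.11), Ifih1 (-0.24, SE 0.19), Mx2 (-0.24, SE 0.23) and Trim25 (-0.45, SE 0.51).

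Parp12 had the smallest p of the 25 in both spleen comparisons with control. Its reads numbered 1, 5, 6 and 1 in the control libraries, 5, 6, 19 and 4 on high fibre and 7, 18, 7 and 13 on acetate. These correspond to 0.150, 0.492, 0.662 and 0.149 CPM on control and 0.957, 3.67, 1.35 and 1.45 on acetate, with every acetate library above every control library. The log2 fold change on acetate was 1.64 (SE 0.67, unadjusted p = 0.00304), the largest upward value among the 24871 tested windows, and it did not pass the adjustment over windows (edgeR adjusted p = 0.999). On high fibre it was 1.24 (SE 0.70), with overlapping libraries. Parp12 passed the count filter in spleen through acetate and high fibre libraries alone, and no control library reached the filter level. Its separation from control and its rank among tested windows thus follow in part from the filter. In heart Parp12 was level, at 15.6 ± 0.650 CPM in the control group, 15.3 ± 0.489 with high fibre and 15.0 ± 0.853 with acetate.

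Whether the diet effects differed between tissues was tested as an interaction over all 23 libraries. None of the 31 genes passed for high fibre, where 8 (25.8%) had an unadjusted p under 0.05, beside 16.4% of all windows, and 0.0559% of all windows were called, 0.0177% higher and 0.0383% lower (edgeR; DESeq2 called 0 of the 31). The 3 with the smallest p in the lower direction were Parp12 (-1.30, SE 0.59, adjusted p = 0.196), Bst2 (-0.97, SE 0.38, adjusted p = 0.200) and Irf9 (-0.58, SE 0.24, adjusted p = 0.236). In the higher direction they were Ifih1 (0.35, SE 0.21), Mx2 (0.35, SE 0.22) and Rsad2 (0.37, SE 0.40). For acetate none passed, 2 (6.45%) had an unadjusted p under 0.05, beside 4.57% of all windows, and 0% of windows were called (DESeq2 also called 0 of the 31). There Parp12 (-1.73, SE 0.57, adjusted p = 1.00), Ifi35 (-0.98, SE 0.61) and Ifnar2 (-0.27, SE 0.21) led downward, and Ifit2 (0.29, SE 0.27), Irf5 (0.20, SE 0.20) and Eif2ak2 (0.53, SE 0.77) upward. A difference between heart and spleen in the high fibre effect was thus not shown for any of these genes.

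More windows differed between the tissues than between the diets. Scaled over both tissues, 11 of the 31 genes had more captured DNA in heart than in spleen on control diet and 9 had less. Of all 33982 windows tested 72.7% were called, 40% higher and 32.7% lower, so the genes' 20 calls lay under the overall share. Parp12, Ifit3, Ifi35 and Bst2 stood highest in heart, and Oasl1, Ifnar2, Irf3 and Ddx58 stood lowest. Ifit3, Ifi35, Ifi44 and Mx1 were below the count minimum in spleen, with 45, 48, 63 and 51 reads over its 12 libraries. They passed the filter over both tissues through heart libraries, so their calls as higher in heart follow in part from the filter.

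Parp12 had 10.1, 10.9, 10.3 and 9.97 CPM in control heart and 0.233, 0.704, 0.978 and 0.215 in control spleen, where it rested on 1 to 6 reads. The libraries were far apart (log2 3.60, SE 0.38, edgeR adjusted p = 4.50e-11), and the gene's promoter is the CpG-dense one shown above. Mx2 had 14.8, 19.7, 17.4 and 18.3 CPM in heart and 5.82, 9.57, 7.50 and 10.1 in spleen (log2 1.05, SE 0.15, adjusted p = 2.05e-07). Ifnar2, the ligand-binding receptor chain, went the other way, with 22.5, 19.5, 20.3 and 17.7 CPM in heart and 50.6, 42.7, 43.3 and 39.6 in spleen (log2 -1.12, SE 0.14, adjusted p = 1.31e-08). Ddx58 had 86.4, 83.7, 83.9 and 69.9 CPM in heart and 180, 144, 171 and 157 in spleen (log2 -1.01, SE 0.13, adjusted p = 2.30e-08). Heart and spleen libraries did not overlap for these 4 genes, which were picked by smallest p in each direction. The share of all windows without such overlap is not given here.

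By role, the receptor chain Ifnar1 showed no called difference on control (-0.17) while Ifnar2 was lower. Of the 6 factors Irf1 was higher (0.89) and Irf3 lower (-1.06). Of the 3 sensors Ddx58 and Dhx58 (-0.91) were lower. Among the 18 effectors 10 were higher, namely Parp12, Ifit3 (2.26), Ifi35 (2.12), Bst2 (1.71), Ifi44 (1.56), Mx1 (1.29), Mx2, Rsad2 (0.78), Parp14 (0.69) and Xaf1 (0.44). The other 4 called effectors were lower: Oasl1 (-1.13), Oasl2 (-0.82), Ifit2 (-0.66) and Oas3 (-0.60). Usp18 was also lower (-0.46). With this scaling Ifit3 and Ifit2, both in the Ifit cluster on chromosome 19, lay on opposite sides of 0. With library totals Ifit2 turned positive. Ifit3 rested on 0 to 7 reads per control spleen library. Irf7 (0.17) and Stat2 (0.72) were not called.

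The tissue comparison on each of the other diets used other libraries throughout. On high fibre 9 of 31 genes were higher and 13 lower, with 80.7% of all windows called (45.1% higher and 35.6% lower). On acetate 11 were higher and 9 lower, with 63% called (34% higher and 29% lower). Across the 3 diets 9 genes were higher in heart each time (Parp12, Ifit3, Ifi35, Bst2, Ifi44, Mx1, Mx2, Rsad2 and Parp14) and 8 were lower each time (Ifnar2, Irf3, Ddx58, Dhx58, Oas3, Oasl1, Oasl2 and Usp18). That is 54.8% of the genes, beside 56.5% of all windows called in 1 direction on all diets. Ifit3, Ifi35, Ifi44 and Mx1 passed the filter through heart libraries, so their direction follows in part from the filter. Some of these calls were lost when 1 library was left out. Those of Mx1 and Rsad2 on acetate lay close to the threshold (edgeR adjusted p = 0.0474 and 0.0461). They were also lost without some heart control or high fibre libraries, which are in neither group compared. On acetate the calls of Mx1 and Rsad2 were each lost in 12 of the 23 fits that left out 1 library, that of Usp18 in 5, that of Parp14 in 4 and those of Ifi44 and Oas3 in 1 each. On high fibre the Ifi44 call was lost in 3 fits, and on control the Usp18 call in 1. The Parp12 difference was 3.60 among control libraries, 2.30 among high fibre libraries and 1.86 with acetate. Without high fibre spleen replicate 3, the high fibre value was 3.00. The Bst2 difference was 1.71, 0.73 and 1.57. Irf9 was called on high fibre (-0.87) and not with control diet (-0.29) or acetate (-0.32), and the test of that difference between diets is the interaction above.

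**Figure D4:**
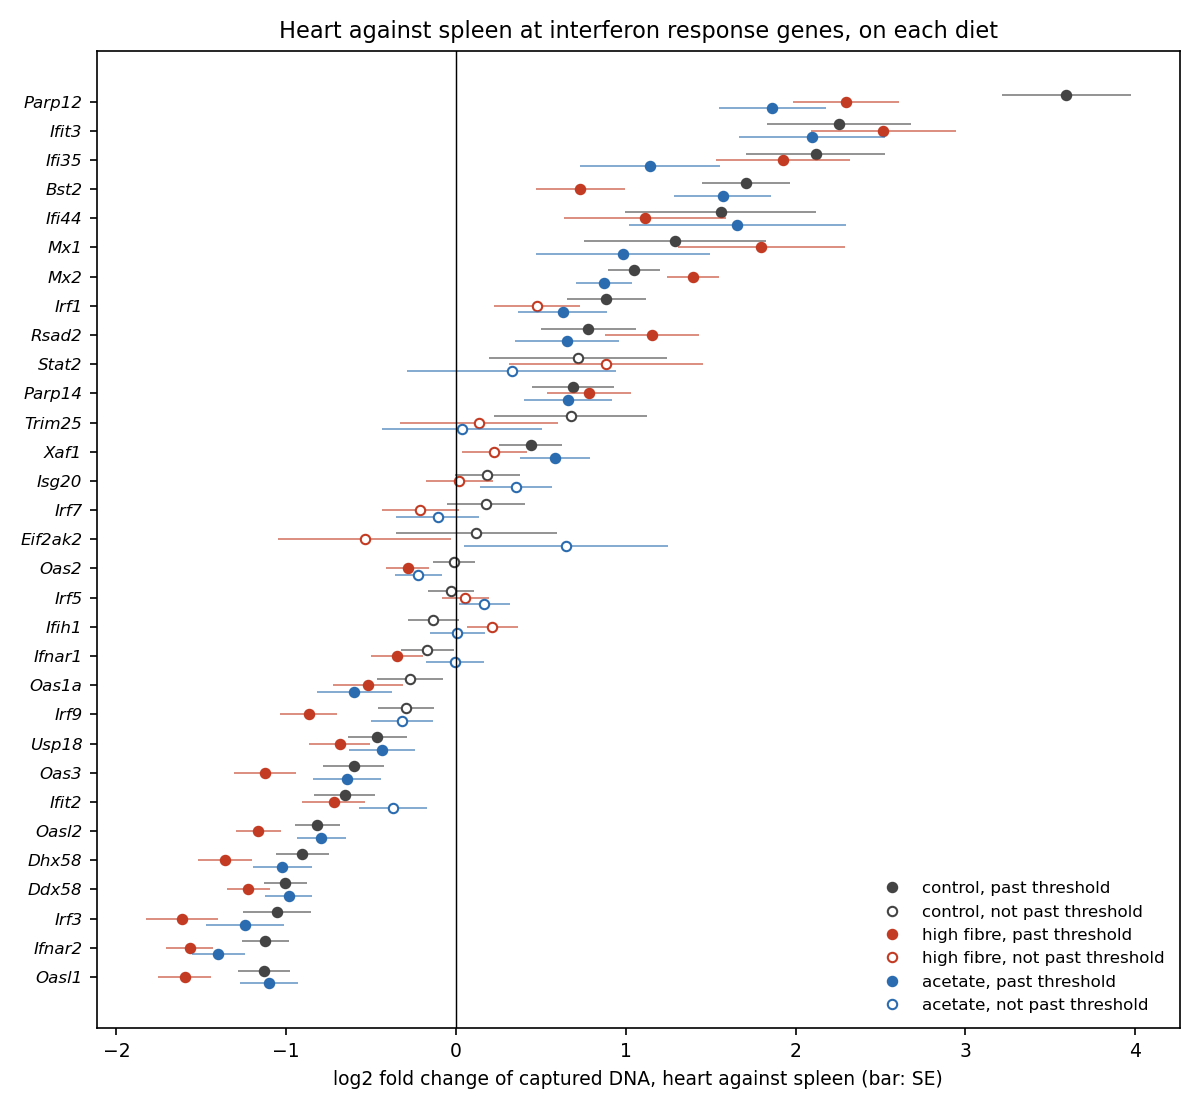
Log2 fold change of captured DNA, heart against spleen, for the 31 tested genes on each diet, ordered by the control value; bars are 1 SE and filled circles passed the threshold. Parp12 stands at 3.60, 2.30 and 1.86 at the top, Oasl1 near -1.1 to -1.6 at the bottom.

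Abundance moved with the tissue difference as well. On control diet 65.3% of windows in deciles 2 to 5 were higher in heart (median 1.14) and 81.8% in the highest decile were lower (median -0.78). Of the 9 genes in deciles 2 to 5, 8 were higher, and of the 6 in the highest decile 5 were lower. With library totals the median of all windows moved from 0.19 to 1.03 on control, and 22 genes were called higher and 0 lower. The share of all windows called with library totals is not given here, so the 22 cannot be set against it. Under that scaling Oas3, Oasl2, Dhx58, Ifit2 and Usp18 turned positive. With loess or 1 surrogate variable Mx1 turned to -0.09 and -0.19. Parp12, Ifit3, Mx2 and Bst2 on control and on acetate stayed higher and called in each of the 8 alternatives tried. For Ifit3 the limit set by the filter, given above, remains.

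From the second list, Trim56 (log2 difference -1.76) and the kinase Ikbke (-1.22) were among the genes lower in heart on control. On high fibre Trim56 (-2.28), the interferon gamma receptor chain Ifngr2 (-1.47) and Ikbke (-1.53) were among those lower. On acetate Trim56 (-1.71), Ifngr2 (-1.14) and Parp9 (-0.92) were. Among the genes higher in heart, those with the smallest p, picked after their values were seen, were the mitochondrial nucleotide kinase Cmpk2 on control (2.13, SE 0.32) and the guanylate-binding protein Gbp2 on high fibre (3.49, SE 0.80) and acetate (2.77, SE 0.77). In all, 19 of 68 were higher and 23 lower on control, which is 61.8% called beside 72.7% of all windows. On high fibre 24 were higher and 25 lower (72.1% beside 80.7%), and on acetate 24 and 21 (66.2% beside 63%).

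The spread between libraries set what could be seen. The coefficient of variation of the tested genes had a median of 11.7% in control heart, 13.0% in high fibre heart and 19.2% in acetate heart, and 14.4%, 16.1% and 18.8% in control, high fibre and acetate spleen. Oas1a varied least in control heart (2.40%) and Parp12 most in high fibre spleen (99.9%). Acetate heart, with 3 libraries, was the widest heart group.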

How the data were processed

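Methyl-CpG enriched DNA (MethylMiner) was sequenced from 11 heart and 12 spleen libraries. The authors deposited raw read counts per gene window, not normalized and not pooled. Per the submitters' processing notes reads were handled with BWA 0.7.10 on build GRCm38 and featureCounts 1.5.1; bcl2fastq 2.19.1.403 and edgeR 3.16.5 are also listed. How windows were centred and how duplicate, multiply aligned or window-sharing reads were counted is not given in the sources used here. No unenriched input library was used, so values compare libraries and are not methylation levels.

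The counts were analysed in R 4.3.3 with edgeR 4.0.16: TMM scaling, filterByExpr at a minimum count of 10, the quasi-likelihood test over all windows, a prior count of 2 and Benjamini-Hochberg adjustment at 5%. Diet comparisons were fitted per tissue over its 3 diets; tissue comparisons and interactions used all 23 libraries. The fit was tested on simulated data. Alternatives used DESeq2 1.42.0, limma 3.58.1 and sva 3.50.0, other scalings, no count filter, a replicate block and leaving out each library. No pair of libraries held identical counts. CPM is given as mean ± SD. Levels are not compared between genes. 95% intervals are normal intervals from the fitted SE. Precision is set by depth (4.12 to 9.87 M counts) and the number of libraries. Promoter motifs were counted with Python 3.11.15.

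The members and gene lists were chosen with earlier results of these data known. Called genes are named; where none passed, the 3 with the smallest p in each direction. Every library is given for the 2 genes with the smallest p per direction in heart on high fibre and in heart against spleen on control, and for Irf7, Isg15, Ifit1, Stat2 and Ifnar1. From the second list the 4 with the smallest p among called genes are named, apart from some that are not reported here. Eif2ak2, Ifi44, Parp12 in spleen and other genes outside this rule were named after their values were seen.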

Additional observations from a re-analysis of the deposited data

Results flagged for a closer look

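In groups of 4 libraries, 147 combinations were tested by Dixon's test at its 95% level. They paired a group with a tested gene, the library total or the Gm10800 share. In 5 of the 147, all of them genes, 1 library lay far from the other 3. Chance flags about 1 in 20. Ddx58 was low in control heart replicate 4, at 106 CPM against 126 to 130 in the others. Ifnar2 was high in high fibre spleen replicate 1, at 36.1 CPM against 31.9 to 32.3. Irf5 was low in high fibre spleen replicate 3, at 20.9 CPM against 27.5 to 27.7. Parp12 was high in the same library, at 3.39 CPM against 0.519 to 0.956. Xaf1 was low in acetate spleen replicate 4, at 3.45 CPM against 5.06 to 5.30. None of these 5 genes was called in a diet comparison.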

How the results depend on the processing

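For the 5 comparisons with a called gene, the count stayed within 1.5 times of the main value in 29 of 40 combinations with an alternative that kept all libraries. The 6 comparisons with 0 called stayed at 0 in 47 of 48, which says nothing about stability. For high fibre against control in heart, 10 genes became 0 with 1 surrogate variable and 17 with library totals, and leaving out 1 library gave 3 (without control replicate 1) to 17 (without acetate replicate 1). For high fibre against acetate in heart, 1 became 0 with 1 surrogate variable, loess, relative log expression factors and totals outside the 5 largest windows (chosen after seeing the data), and 2 with DESeq2; leaving out 1 library gave 0 to 5. For heart against spleen, 1 surrogate variable gave 13 in place of 20 on control and 12 in place of 22 on high fibre. The interaction for high fibre became 3 with library totals. The labels number heart and spleen libraries alike but do not say that equal numbers mark 1 mouse. Deviations of same-numbered heart and spleen libraries correlated from -0.07 to 0.39, not above 0.1 in every pair, and 5 of 11 correlated best with their own number, so pairing was not established. With the replicate block the count was 13 in place of 20 for heart against spleen on acetate and 2 in place of 1 for high fibre against acetate in heart, and 11 in place of 10 for high fibre against control. The share of all windows called in each fit is not given beside these counts, so they describe the genes alone. Of the gene values, 54 changed sign.

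With library totals, the high fibre differences in heart became 0.13 for Bst2, 0.23 for Dhx58, 0.12 for Irf1, 0.085 for Irf3, 0.067 for Irf9, 0.29 for Oas1a, 0.15 for Oas3, 0.17 for Oasl1 and 0.17 for Oasl2. Heart against spleen on high fibre became 0.37 for Ddx58, 0.22 for Dhx58, 0.82 for Ifit2, 1.21 for Ifnar1, 0.012 for Ifnar2, 0.71 for Irf9, 1.03 for Oas1a, 1.30 for Oas2, 0.46 for Oas3, 0.42 for Oasl2 and 0.88 for Usp18. On control it became 0.0035 for Dhx58, 0.21 for Ifit2, 0.32 for Oas3, 0.087 for Oasl2 and 0.43 for Usp18, and on acetate 0.34 for Oas1a, 0.26 for Oas3, 0.12 for Oasl2 and 0.51 for Usp18. With totals outside the 5 largest windows, Ifnar1 became 0.20, Oas1a 0.040 and Oas2 0.27 on high fibre.

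With loess, heart against spleen on high fibre became -0.22 for Bst2, 0.014 for Ddx58, -0.67 for Ifi44, 0.040 for Irf9, 0.54 for Oas2 and -0.14 for Parp14. On control it became -0.085 for Mx1, 0.12 for Oas3 and -0.081 for Parp14, and on acetate -0.37 for Mx1, 0.012 for Oas3 and 0.035 for Usp18. With 1 surrogate variable it became on high fibre -1.24 for Ifi44, 0.067 for Irf9, -0.63 for Mx1, 0.060 for Oas3 and -0.17 for Rsad2. On control it became -0.19 for Mx1, 0.14 for Oas3 and -0.024 for Rsad2, and on acetate -0.33 for Mx1 and -0.019 for Rsad2. The cause was not tested. Depth limits spleen, where 10 of the 35 genes were untested.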
